A study of Mus musculus with 32 samples.

Results

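The first 4 h of differentiation were followed in C2C12 cells treated with trichostatin A (TSA), by setting 2 arrays titled as TSA at 4 h against 2 arrays titled as TSA at 0 h. These 4 arrays were chosen by title alone and belong to a series of 32. C2C12 is an established mouse myoblast line, and TSA inhibits the zinc-dependent histone deacetylases, enzymes that remove acetyl groups from histones and other proteins. The 0 h cells were in growth medium and the 4 h cells had been moved to differentiation medium, and both groups are titled as TSA. Untreated cells at the same times (2 arrays each) serve as the reference, within an arm of 20 arrays that also has later times. The other 12 arrays, of cells with Sir2 or its vector, were not used. The labels state neither the dose of TSA, nor for how long the cells had it before 0 h, nor whether it was still present afterwards. Nor do they state whether replicate arrays came from different cultures, and the p-values cover the spread among these arrays, which may be technical.

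When the growth factors of serum are lowered, myoblasts leave the cell cycle and switch on muscle genes, a step held back by Id proteins, which bind the partners of MyoD and myogenin. Genes of DNA replication are controlled largely by E2F and RB-family proteins, and those of mitosis by the DREAM complex, MuvB, B-MYB and FOXM1. A change of medium is itself a stimulus, to which cells answer within hours with growth factor feedback genes, genes of ribosome production and changes in sterol synthesis.

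Of 7453 probe sets tested, 447 (6.0%) passed between 0 and 4 h in TSA-treated cells, 284 higher (3.81%) and 163 lower (2.19%) at 4 h. A probe set passed at an adjusted p under 0.05, from a limma fit over the 20 arrays with Benjamini-Hochberg adjustment. Log2 changes were taken after setting values below 0 to 0 and adding 137.7 to every intensity, so changes of dim genes are compressed, and values after ± are standard errors. With 1 probe set per gene, 364 of 5636 genes passed (6.46%), 226 higher (4.01%) and 138 lower (2.45%), and the median log2 change was 0.81 among probe sets called higher and 0.78 in size among those called lower. Untreated cells had 126 called genes over the same interval (2.24%), 67 higher (1.19%) and 59 lower (1.05%). Over all genes, called or not, both 4 h arrays with TSA lay above both 0 h arrays in 24.3% and below them in 24.7%. Every call rests on a spread taken from all 20 arrays: in a fit of the 4 arrays alone no probe set passed, 1216 had an unadjusted p under 0.05, and the smallest adjusted p was 0.0964. The count of 447 was also lower without 1 array: 161 without replicate 1 and 240 without replicate 2 of 0 h, 179 without replicate 2 of 4 h. Of the 364 called genes, 94 kept their call without each of the 4 arrays in turn, and calls lost in this way are given beside the genes named.

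The 4 arrays were even in scale, with trimmed means of 800.62 to 800.66, medians of 260 to 276 and 21.1% to 22.2% of values at or below 0. RNA integrity, read from Gapdh as 3' over 5' signal, was 0.739 to 0.865. The 11 myoblast markers on the array were all tested, and their summed intensity was 24852 to 26322 at 0 h and 26499 to 28402 at 4 h, with Sdc4 not above 0 on either 0 h array. Of 14 leukocyte genes on the array, Ptprc, Cd3e, Lyz2 and Itgam were at or below 0 on all 4 arrays. Of 10 endothelial genes, Vwf and Icam2 were. Summed intensity at 0 h was 2440 to 2860 for the leukocyte genes and 1219 to 1565 for the endothelial ones. It was 28766 to 34116 for 7 smooth muscle genes, 17508 to 17613 for 13 neuron genes and 7322 to 8940 for 12 keratinocyte and epithelial genes. The smooth muscle sum was above the myoblast sum, so these sums do not by themselves identify the cells. In RNA of whole cultures, fewer cells of a kind and less RNA per cell cannot be told apart.

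Genes of mitosis and cytokinesis were the group that moved most often. Of 37 tested members, 18 rose from 0 to 4 h in TSA-treated cells and 0 fell in the limma fit, against 4.01% and 2.45% of all genes, and 34 of the 37 had a positive log2 change. At an unadjusted p under 0.05, 26 were higher and 0 lower, against 10.6% and 8.25% of all genes. These shares were 8.62% higher and 7.24% lower in untreated cells, and 7.49% and 5.64% for the difference between the treated and the untreated change, and the unadjusted counts given for other lists are to be read against them. The median log2 change of the list was 0.74, against -0.00 for all genes. In untreated cells 0 of the 37 passed in either direction (unadjusted, 0 higher and 10 lower), and the median was -0.23. The counts for TSA-treated cells rest in part on single arrays: 6 members were called without replicate 1 of 0 h and 6 without replicate 2 of 4 h, against 17 without replicate 2 of 0 h and 16 without replicate 1 of 4 h.

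Cdk1, the kinase that drives cells into mitosis, had intensities of 1731 and 1846 at 0 h and of 5600 and 5567 at 4 h, a log2 change of 1.57 ± 0.17 (adjusted p = 0.00022). Untreated cells had 6420 and 5090 at 0 h and 5232 and 5230 at 4 h. The TSA-treated arrays of 4 h therefore lay within the range of the untreated ones, well above those of 0 h. Hmgb2, a chromatin protein abundant in dividing cells, went from 1816 and 1802 to 6100 and 6529 (log2 change 1.73 ± 0.19, adjusted p = 0.000297), with untreated arrays at 10343 and 7905 and then 5834 and 7079. Its probe set carries the suffix of sets chosen under relaxed design rules.

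Cdc20, which activates the anaphase-promoting complex, went from 1501 and 1810 to 3779 and 3570, a log2 change of 1.09 ± 0.16 (adjusted p = 0.00174). Both 4 h arrays were higher than both 0 h arrays, and still below the untreated 4 h arrays at 7741 and 9717. Mad2l1, a protein of the spindle checkpoint, went from 1322 and 1460 to 2706 and 2922 (0.95 ± 0.12, adjusted p = 0.000762), with 3529 and 3409 in untreated cells at 4 h. Plk4, the kinase of centriole duplication, went from 658 and 978 to 1888 and 2160 (1.20 ± 0.19, adjusted p = 0.00308), within the untreated 4 h values of 1947 and 2356 or just below them. These 5 genes kept their call without each of the 4 arrays in turn.

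Top2a, the topoisomerase that untangles chromosomes, went from 481 and 701 to 1209 and 1638, a log2 change of 1.10 ± 0.20 (adjusted p = 0.00686). The call was lost without replicate 1 of 0 h (adjusted p = 0.0804) and without replicate 2 of 4 h (0.0809). Mki67, the proliferation antigen Ki-67, went from 627 and 831 to 1141 and 1468 (0.74 ± 0.14, adjusted p = 0.00992), and was lost without the same arrays (adjusted p = 0.103 and 0.107). In both genes the groups did not overlap. Some members did not pass: the kinesin gene Kif23 had a large log2 change of 1.40 with scattered arrays (487 and 228, then 730 and 1698), while the mitotic kinase gene Aurkb had -0.03 and the survivin gene Birc5 0.30.

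**Figure D1:**
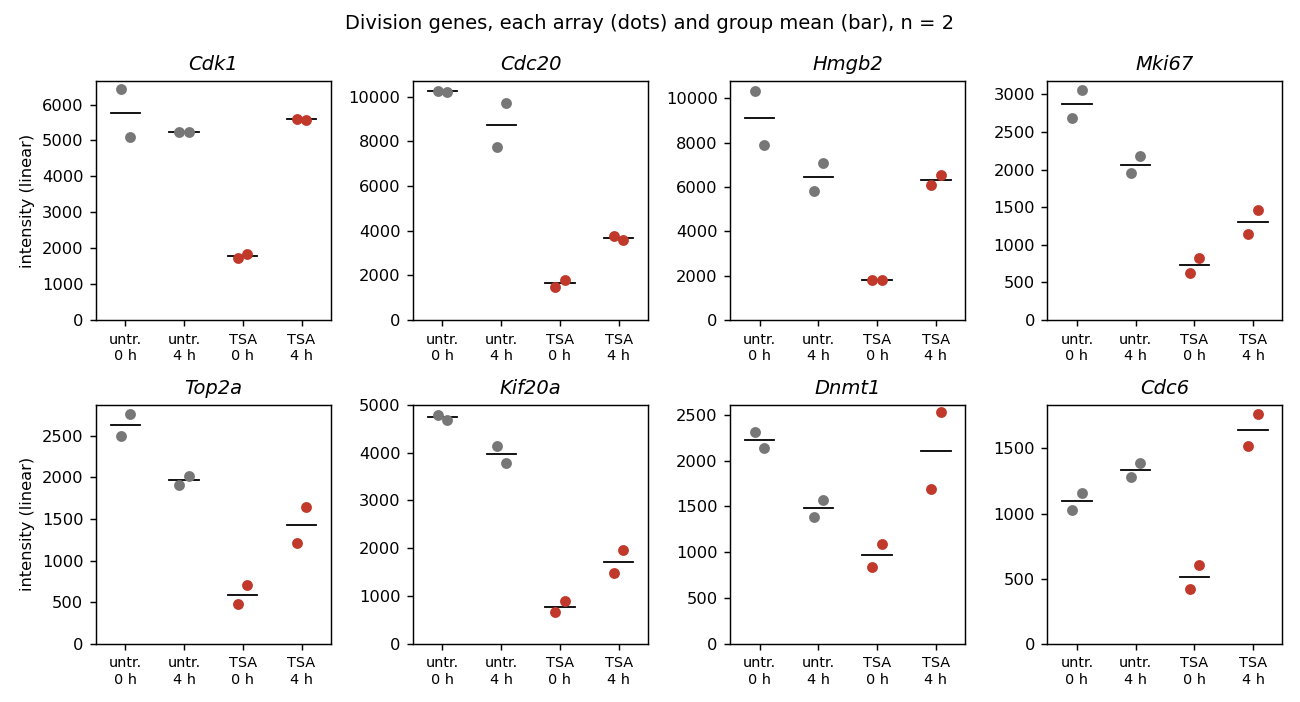
Intensity on a linear scale (vertical axis, each gene on its own scale) of 8 genes of division in untreated and TSA-treated cells at 0 and 4 h. Dots are arrays and bars the mean of 2 arrays. The TSA-treated arrays of 0 h are the lowest of the 4 groups in every panel, and the values of Cdk1 at 4 h, 5600 and 5567, lie within the untreated range.

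The promoters of 4 of these genes are shown because mitotic genes share promoter letters by which they are known to be controlled. They are the 200 bases up to the transcription start in RefSeq on GRCm38.p6, each on the minus strand and written 5' to 3', at chr10:69352913-69353112 for Cdk1, chr4:118437344-118437543 for Cdc20, chr11:99024190-99024389 for Top2a and chr7:135716380-135716579 for Mki67. Capitals mark CCAAT, the cell cycle homology region letters TTTGAA and, in Cdk1, the E2F letters TTTNGCGC, on either strand.
Cdk1: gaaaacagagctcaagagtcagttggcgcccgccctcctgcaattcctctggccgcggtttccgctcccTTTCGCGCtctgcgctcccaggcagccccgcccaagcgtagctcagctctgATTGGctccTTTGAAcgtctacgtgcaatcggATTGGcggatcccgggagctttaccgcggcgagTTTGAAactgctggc
Cdc20: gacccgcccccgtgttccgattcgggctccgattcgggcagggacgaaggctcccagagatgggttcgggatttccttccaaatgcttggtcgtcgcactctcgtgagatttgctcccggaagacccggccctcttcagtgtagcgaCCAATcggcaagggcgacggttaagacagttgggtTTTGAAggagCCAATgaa
Top2a: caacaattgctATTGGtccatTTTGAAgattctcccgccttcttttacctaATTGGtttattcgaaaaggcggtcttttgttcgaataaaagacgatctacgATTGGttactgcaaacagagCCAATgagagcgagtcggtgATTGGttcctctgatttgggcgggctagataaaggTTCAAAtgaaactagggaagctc
Mki67: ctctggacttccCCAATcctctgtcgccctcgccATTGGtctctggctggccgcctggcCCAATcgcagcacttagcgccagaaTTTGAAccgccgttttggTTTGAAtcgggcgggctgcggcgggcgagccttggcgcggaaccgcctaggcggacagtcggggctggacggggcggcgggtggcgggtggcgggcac
The copy of TTTGAA nearest the start began 15 bases before it in Cdk1, 18 in Cdc20, 23 in Top2a and 98 in Mki67. In windows of 300 bases, 250 before to 50 after the start, TTTGAA was found in 13 of the 15 mitotic genes that rose and had a window, in 10 of 16 members that did not pass, and in 14.6% of 4542 tested genes. The corresponding counts for CCAAT were 11 of 15, 13 of 16 and 43.2%. Both sets of mitotic genes thus held TTTGAA more often than tested genes at large, and a match is a description of letters, not a sign of binding.

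DNA replication genes moved the same way in fewer members. Of 31 tested, 8 rose and 0 fell (unadjusted, 18 and 0), the median log2 change was 0.56, and 29 were positive. In untreated cells 0 rose and 1 fell, with a median of -0.25. Orc6, a subunit of the origin recognition complex, went from 1499 and 1449 to 2550 and 2647 (0.76 ± 0.11, adjusted p = 0.00181) and kept its call without any 1 array. Dnmt1, which copies DNA methylation onto new strands, went from 841 and 1092 to 1685 and 2525 (1.01 ± 0.21, adjusted p = 0.0137), and was lost without replicate 1 of 0 h (0.12) and replicate 2 of 4 h (0.133). Rrm2, a subunit of the enzyme that makes deoxynucleotides, went from 7095 and 6678 to 11071 and 12846 (0.78 ± 0.16, adjusted p = 0.0141). It was lost without each of 3 arrays, with adjusted p up to 0.122, and kept without replicate 1 of 4 h. The count of members called fell to 3 without replicate 1 or replicate 2 of 0 h and to 1 without replicate 2 of 4 h. Pcna, the sliding clamp of the polymerase, stood at 8625 and 8715 and then at 11171 and 8984, log2 change 0.21, and did not pass. The E2F letters TTTNGCGC were in the window of 4 of 8 replication genes that rose, 5 of 20 that did not pass and 3.08% of tested genes.

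Among cyclins and kinases of G1 and S phase, 4 of 11 rose and 0 fell (unadjusted, 6 and 0). Cdc6, which loads the replicative helicase, went from 420 and 602 to 1516 and 1768 (1.47 ± 0.25, adjusted p = 0.00463) and was lost without replicate 1 of 0 h (0.0584). The cyclin gene Ccne2 went from 140 and 162 to 408 and 477 (1.01 ± 0.18, adjusted p = 0.00595). The phosphatase gene Cdc25a went from 640 and 697 to 1398 and 1772 (1.09 ± 0.20, adjusted p = 0.00653). In these genes and in Cdt1 (0.53 ± 0.10, adjusted p = 0.0101) both 4 h arrays were above both 0 h arrays. The 4 calls were all lost without replicate 1 of 0 h, and 3 of them, all but Cdc6, without replicate 2 of 4 h (adjusted p of 0.0607 to 0.0753). Ccnd1, the cyclin that answers to mitogens, had 2988 and 2723 and then 2427 and 2329, and did not pass.

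The low starting level is part of these counts, because the 0 h arrays of TSA-treated cells enter both the change and the comparison with untreated cells. At 0 h both TSA-treated arrays lay below both untreated arrays in 37 of 37 mitosis genes and 29 of 31 replication genes, against 32.5% of all genes. At 4 h this held for 31 of 37 mitosis genes but for 7 of 31 replication genes, against 30.7% of all genes. Most replication genes thus no longer lay below the untreated arrays at 4 h, while most mitosis genes still did, Cdk1 and Hmgb2 being exceptions.

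Genes of ribosome production also rose in part. Of 26 tested genes of ribosome biogenesis and MYC targets, 9 rose and 0 fell (unadjusted, 12 and 1), with a median log2 change of 0.30, and in untreated cells 1 rose and 0 fell with a median of 0.14. Srm, spermidine synthase, went from 1212 and 1156 to 3681 and 3686 (1.53 ± 0.15, adjusted p = 9.01e-05), and untreated cells from 2584 and 2331 to 3619 and 3597. Its probe set carries the suffix of sets that can bind related transcripts. Nop56, a core protein of box C/D ribonucleoproteins, went from 1488 and 1342 to 3682 and 3844 (1.33 ± 0.12, adjusted p = 8.31e-05), and untreated cells from 2493 and 2304 to 3290 and 3338. Both genes began below the untreated arrays and ended above them.

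Gnl3, nucleostemin, rose by 1.14 ± 0.20 (adjusted p = 0.00546), the ribosomal RNA methyltransferase gene Nop2 by 0.98 ± 0.16 (0.00364) and Rrs1, an assembly factor, by 0.82 ± 0.10 (0.00051). These 5 genes kept their calls without each array in turn, and 5 of the list were called without replicate 1 of 0 h, 5 without replicate 2 of 4 h and 6 or 7 without the others. Myc itself, whose protein drives such genes, went from 309 and 224 to 600 and 581 (0.86 ± 0.16, adjusted p = 0.00727), and was lost without replicate 2 of 0 h (0.0771). Cytosolic ribosomal protein genes had no calls: 0 of 21 passed in either direction in the limma fit (unadjusted, 0 higher and 1 lower), with a median of 0.03. Only 25 of the 62 listed were on the array, and log2 changes ran from -1.50 to 2.25. Rps13, for 1, had -250 and -362 and then -283 and 2968. The lack of calls therefore does not show that these genes stayed level.

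**Figure D2:**
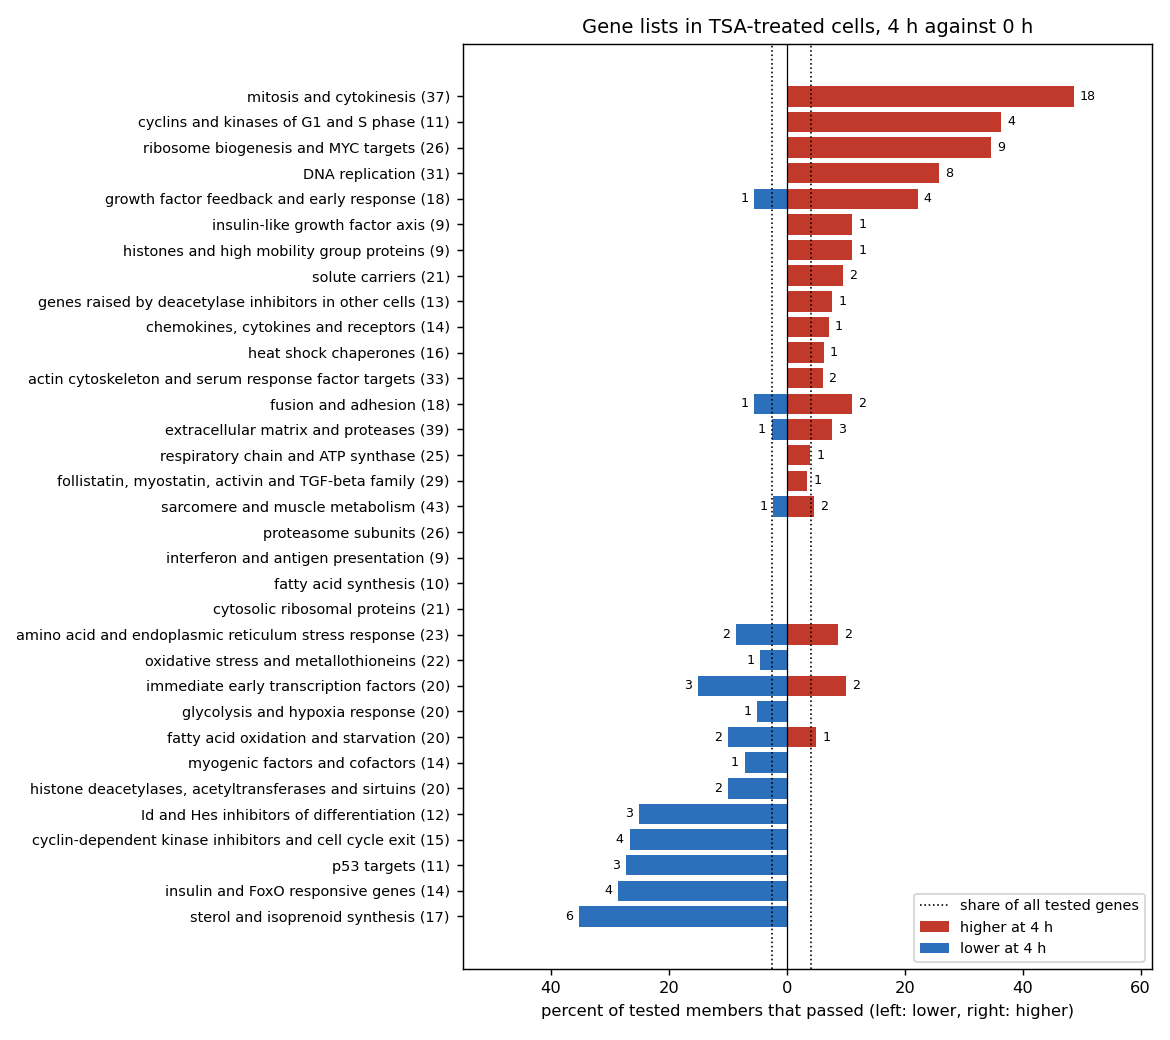
Percent of the tested members of each gene list that passed in TSA-treated cells, 4 h against 0 h (horizontal axis, lower at 4 h to the left and higher to the right), with the number of members tested in parentheses and the number called at the bar. Dotted lines mark the share among all genes, 4.01% higher and 2.45% lower. The bars of mitosis (18 of 37) and sterol synthesis (6 of 17) stand at the 2 ends.

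Part of the sterol synthesis genes fell. Of 17 tested genes of the sterol and isoprenoid pathway, 6 fell and 0 rose (unadjusted, 9 and 0), with a median log2 change of -0.62, and in untreated cells 2 fell and 0 rose with a median of -0.22. Msmo1, a sterol demethylating oxidase, went from 1619 and 2241 to 365 and 127 (-2.49 ± 0.28, adjusted p = 0.00034), and untreated cells from 4187 and 4435 to 1902 and 1849. Hmgcs1, which makes HMG-CoA at the entry of the pathway, went from 3305 and 3917 to 1489 and 1056 (-1.42 ± 0.16, adjusted p = 0.00034). Sqle, squalene epoxidase, went from 3862 and 4391 to 1542 and 1618 (-1.31 ± 0.13, adjusted p = 0.000138). In each gene the 4 h arrays lay below the 0 h arrays, which already lay below all untreated arrays of 0 h.

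Fdft1, squalene synthase, fell by 0.87 on the log2 scale (adjusted p = 0.00151). These 4 kept their calls without each array in turn. Idi1 (-0.72 ± 0.13) and Mvd (-1.04 ± 0.20) passed as well, but not without replicate 2 of 0 h (adjusted p = 0.072 and 0.0927) or replicate 2 of 4 h (0.0589 and 0.0595). Both TSA-treated arrays were below both untreated arrays in 14 of the 17 genes at 0 h and in 16 at 4 h. No member differed between treated and untreated cells in its 4 h change after adjustment (limma; unadjusted, 0 higher and 5 lower). Fatty acid synthesis genes did not pass in either direction (0 of 10; unadjusted, 0 higher and 2 lower).

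Hmgcs1 is shown for the letters TCACNCCAC, a sterol regulatory element by which SREBP acts on this pathway, here in capitals in the 200 bases up to its start, at chr13:119690151-119690350 on the plus strand of GRCm38.p6.
Hmgcs1: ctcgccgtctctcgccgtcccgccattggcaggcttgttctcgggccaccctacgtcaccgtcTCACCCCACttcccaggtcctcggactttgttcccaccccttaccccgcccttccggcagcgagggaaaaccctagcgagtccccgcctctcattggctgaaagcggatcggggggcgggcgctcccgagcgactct
The match began 137 bases before the start. Of the sterol genes with a window, 1 of 4 that fell and 0 of 10 that did not pass held these letters on either strand, as did 1.43% of tested genes, so the letters searched do not mark out the group.

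Id1 and Id3, regulators that oppose differentiation, fell in TSA-treated cells and were lower at 4 h in untreated cells as well. Id3, an inhibitor of MyoD's partners, went from 6522 and 5700 to 1032 and 623 (-2.72 ± 0.34, adjusted p = 0.000582), and in untreated cells from 6248 and 5035 to 785 and 738. Id1, of the same family, went from 5881 and 6533 to 1960 and 935 (-2.08 ± 0.25, adjusted p = 0.000489), and in untreated cells from 2790 and 2720 to 840 and 865. The treated and untreated arrays of Id3 overlapped at both times, whereas those of Id1 were higher with TSA at both. The 2 falls of Id1 did not pass as different (-0.53 ± 0.35, adjusted p = 0.638). Id2 did not pass in TSA-treated cells, where it went from 6491 and 6228 to 4792 and 4248 (-0.48 ± 0.25, adjusted p = 0.353), and fell in untreated cells from 5428 and 4434 to 1760 and 1535 (-1.50 ± 0.25, adjusted p = 0.0103). The difference between these changes did not pass (1.02 ± 0.36, adjusted p = 0.219). Of 12 tested Id, Hes and related genes, 3 fell and 0 rose (unadjusted, 3 and 0). The third, Snai2, a repressor of the Snail family, fell by 0.84 on the log2 scale (adjusted p = 0.0176), and was lost without replicate 2 of 0 h (0.155) or either array of 4 h (0.094 and 0.0659).

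Klf4, a zinc finger factor of immediate early kind, fell further with TSA than without. It went from 1258 and 1325 to 155 and 115 (-2.39 ± 0.19, adjusted p = 4.27e-05), against 588 and 561 to 171 and 245 in untreated cells, and the changes differed by -1.34 ± 0.26 (adjusted p = 0.0296). The difference was lost without 7 of the 8 arrays it uses, with adjusted p up to 0.108, and kept only without replicate 1 of 4 h in TSA-treated cells. Its fall within TSA-treated cells kept its call without each array. Immediate early factors as a group were mixed, 2 of 20 higher and 3 lower. Fos went from 231 and 267 to 407 and 366 (adjusted p = 0.391) and Egr1 from 1715 and 2453 to 2408 and 3056 (0.632), and neither passed.

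Few muscle genes passed by 4 h. The determination factors Myod1 (2173 and 2168, then 2644 and 2669, adjusted p = 0.179) and Myf5 (3112 and 3004, then 2974 and 2511, 0.748) did not pass, nor did myogenin, Myog (808 and 609, then 772 and 457, 0.9). Of 14 myogenic factors and cofactors, 0 rose and 1 fell (unadjusted, 2 and 1). That was Mef2d, a partner of MyoD, which went from 1909 and 2020 to 1055 and 1057 (-0.82 ± 0.16, adjusted p = 0.0105) and in untreated cells from 1719 and 1908 to 2374 and 1853. The difference passed (-1.01 ± 0.23, adjusted p = 0.0477) but was lost without each of the 8 arrays in turn (adjusted p of 0.0656 to 0.192), and the fall was lost without every array but replicate 1 of 4 h (adjusted p of 0.0588 to 0.0744). Of 43 genes of sarcomere and muscle metabolism, 2 rose and 1 fell, shares near those of all genes (unadjusted, 7 and 1). Tnnt2 went from 1313 and 1351 to 2485 and 2845 (0.93, limma, adjusted p = 0.0148), and Cacng1 rose by 0.53 (0.0123). Chrng changed by -0.91 (0.0391), but its other probe set did not pass (0.18, 0.871). Cdh15, M-cadherin of the myoblast surface, rose from 2635 and 2842 to 4381 and 5333 (0.79 ± 0.12, adjusted p = 0.00183) and kept its call without each array. Untreated cells had 2610 and 2630 and then 2852 and 2867, and the difference of the changes did not pass (0.67, limma, adjusted p = 0.0699).

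Genes that restrain division fell in 4 of 15 tested cases and rose in 0 (unadjusted, 4 and 1), a count that was 0 without replicate 2 of 0 h and 1 without each of the other 3 arrays. Cdkn1b, which encodes the kinase inhibitor p27, fell by 0.96 (adjusted p = 0.0292) and the cyclin gene Ccng2 fell by 0.82 (0.0339) on the log2 scale. Both lost their calls without each array in turn. In untreated cells 2 of the 15 genes fell and 0 rose in the limma fit. Ccng2 changed there by -1.57 (adjusted p = 0.00324), from 1354 and 1629 to 502 and 333. Tob1, an antiproliferative protein, went from 1012 and 1263 to 483 and 637 (-0.87 ± 0.18, adjusted p = 0.0123), and in untreated cells from 848 and 1065 to 1240 and 1587, a difference of -1.37 ± 0.25 (adjusted p = 0.021) that was lost without 4 of the 8 arrays (adjusted p up to 0.108). The fall was lost without replicate 2 of 0 h (0.113) and replicate 1 of 4 h (0.0866). Cdkn2d, an inhibitor of the CDK4 kinases, went from 1209 and 1051 to 419 and 14.8, and was lost without 3 of the arrays, with adjusted p up to 0.0942. Cdkn1a, which encodes p21 and is often raised by deacetylase inhibitors, was scattered, at 1091 and 1644 and then at 2824 and 1037 (adjusted p = 0.851). Its other probe set did not pass either (0.21 on the log2 scale, adjusted p = 0.643). Of 13 tested genes that deacetylase inhibitors are known to raise elsewhere, 1 rose and 0 fell (unadjusted, 1 and 3), and that gene, Ccn2, rose in untreated cells too. Both times are titled as TSA, so these counts do not show what TSA had raised before 0 h.

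The change from 0 to 4 h was shared in part with untreated cells, with which no array is shared. Of the 226 genes that rose with TSA, 24 also rose without it, which is 10.6% of 226 and 35.8% of the 67 untreated calls, and 26 fell in both, 18.8% of 138 and 44.1% of 59. The other 3 genes called in both, Pkp2, Fgf11 and Dlgap5, moved in opposite directions. Over 5636 genes the log2 changes had r = 0.26 and rho = 0.24, given as a description, since genes are not independent. Errfi1, which damps signalling of the EGF receptor, went from 2058 and 2450 to 9868 and 8229 with TSA (1.94 ± 0.20, adjusted p = 0.000145), and from 1512 and 1637 to 5209 and 5836 without (1.72 ± 0.20, adjusted p = 0.00142). Angptl4, a secreted inhibitor of lipoprotein lipase, went from 477 and 370 to 2031 and 1635 with TSA (1.81 ± 0.25, adjusted p = 0.0012) and changed by 1.72 ± 0.25 without. Of its other probe sets, 1 rose by 1.96 with TSA (adjusted p = 0.00022) and 1 did not pass, at 0.38 (0.425). Phlda1, an early response protein, went from 321 and 653 to 1776 and 1929 (1.72 ± 0.23, adjusted p = 0.0009) and changed by 1.31 ± 0.23 without. In these 3 genes the 4 h arrays were far above the 0 h arrays in both kinds of culture, and the calls held without each TSA-treated array.

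Of 18 growth factor feedback and early response genes, 4 rose and 1 fell with TSA, and 7 rose and 1 fell without. The growth factor gene Ereg rose by 1.37 ± 0.24 with TSA and 1.65 ± 0.24 without. The cyclooxygenase gene Ptgs2 rose by 1.68 ± 0.30 and 1.34 ± 0.30. With TSA both were lost without replicate 1 of 0 h (adjusted p = 0.0558 and 0.0694), where 2 of the list rose. Ccn2, a matrix protein, rose by 1.11 ± 0.21 and 1.22 ± 0.21 from levels that stood apart, at 2288 and 1876 with TSA and 229 and 149 without. Its call was lost without replicate 2 of 0 h (0.0703) and replicate 1 of 4 h (0.054). Gadd45a, a stress-response gene, fell by 1.30 on the log2 scale with TSA (adjusted p = 0.00389) and fell by 1.62 without it (0.00324). The insulin and FoxO list had 4 of 14 genes lower and 0 higher in TSA-treated cells (unadjusted, 8 and 0) and 4 lower in untreated cells. Sesn1, a sestrin, went from 465 and 527 to 213 and 186 (-0.91 ± 0.16, adjusted p = 0.00461) with TSA and from 661 and 677 to 279 and 270 without. In the fits that left out 1 array 1 to 2 of these 14 genes passed, 1 without replicate 1 of 0 h and 2 without each of the other arrays.

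**Figure D3:**
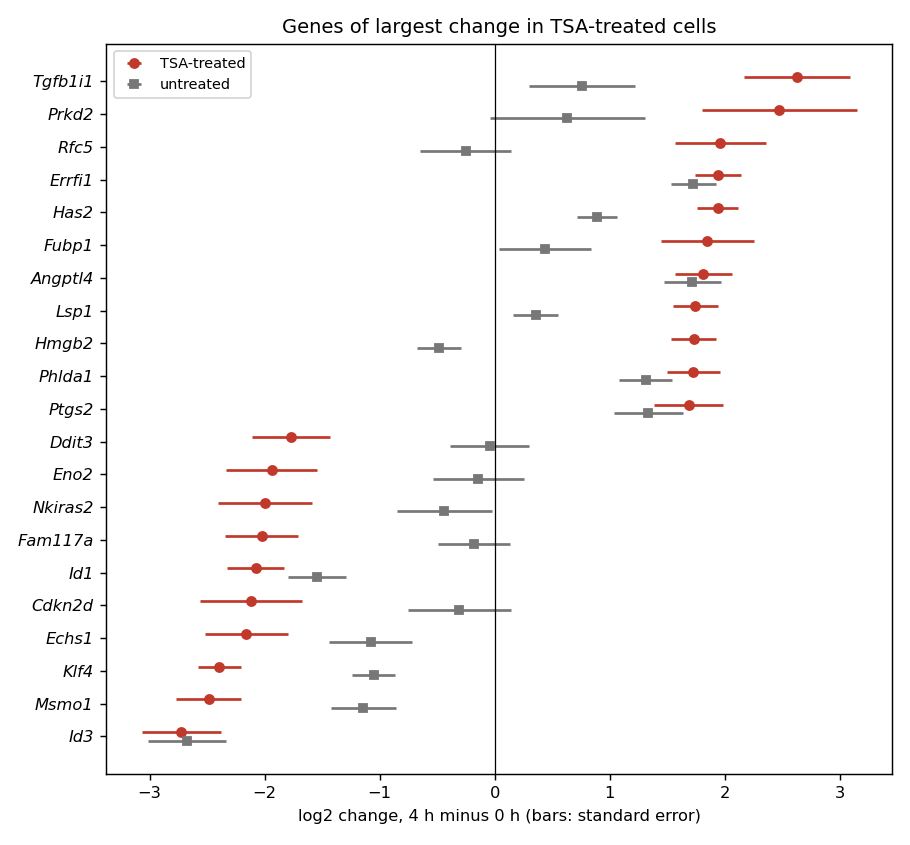
Log2 change from 0 to 4 h (horizontal axis, bars are standard errors) in TSA-treated and in untreated cells for the genes of largest change with TSA, leaving out genes with a TSA-treated group that has no array above 0. Id3, Errfi1, Angptl4 and Phlda1 have points close together, while the points of Hmgb2 lie on opposite sides of 0, at 1.73 with TSA and -0.48 without.

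Lists of secreted proteins had few calls, to be read against 4.01% higher and 2.45% lower among all genes with TSA. The shares of all genes without TSA were 1.19% and 1.05%. Of 39 tested genes of extracellular matrix and proteases, 3 rose and 1 fell with TSA (unadjusted, 5 and 2), with a median log2 change of 0.01, and 3 rose and 0 fell without. Of 29 genes of the follistatin, myostatin, activin and TGF-beta family, 1 rose and 0 fell (unadjusted, 2 and 1), with a median of 0.03. Single members changed strongly. Has2, which makes hyaluronan, went from 1179 and 1155 to 4698 and 5025 (1.94 ± 0.18, adjusted p = 8.31e-05), and without TSA from 741 and 782 to 1477 and 1579. The difference of the changes, 1.05 ± 0.25, did not pass (adjusted p = 0.0596). Fst, follistatin, which binds activin and myostatin, went from 443 and 432 to 1386 and 1400 (1.41 ± 0.19, adjusted p = 0.00103), and untreated cells from 52.7 and 67.1 to 99.6 and 144, and the difference of the changes did not pass (1.02 ± 0.27, adjusted p = 0.0832). Tnc, the matrix protein tenascin C, went from 4414 and 5196 to 10022 and 10764 (1.09 ± 0.14, adjusted p = 0.000762), while its other probe set did not pass (0.74, adjusted p = 0.165). These 3 kept their calls without each array, and their 4 h arrays with TSA were the highest of the 4 groups.

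Igfbp3, a carrier protein of the IGFs, had 351 and 280 at 0 h and 1300 and 1002 at 4 h on its brighter probe set (1.50 ± 0.32, adjusted p = 0.0156), and all untreated arrays of 0 and 4 h were listed below 0. This call was lost without each array in turn (adjusted p of 0.0566 to 0.111). Its difference from untreated cells did not pass on that probe set (1.50, limma, adjusted p = 0.147). On its other probe set the arrays had 122 and 91.1 and then 1149 and 1202 (2.43 ± 0.17, adjusted p = 2.92e-05). There the difference from untreated cells passed (limma, adjusted p = 0.00158). The untreated arrays were again below 0, which leaves those groups without spread, so that p can be too small. Lsp1, an actin-binding protein, went from 489 and 772 to 2023 and 2816 (1.74 ± 0.20, adjusted p = 0.000321), and in untreated cells from 1603 and 1471 to 1775 and 2253. The difference of the changes passed (1.39 ± 0.28, adjusted p = 0.0337), but was lost without 6 of the 8 arrays. Tgfb1i1, a focal adhesion protein, went from 314 and 387 to 2541 and 3227 (2.62 ± 0.46, adjusted p = 0.00519), and was lost without replicate 1 of 0 h and replicate 2 of 4 h. Untreated cells had 1950 and 1812 and then 3340 and 3203, and the difference of the changes did not pass (limma, adjusted p = 0.213). With TSA, both Lsp1 and Tgfb1i1 thus began below the untreated arrays of 0 h.

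Some large changes rest on arrays near or below 0. Shmt2, the mitochondrial enzyme that makes glycine, was at 413 and 458 and then at -190 and -75.8, and Lcat, a cholesterol-esterifying enzyme, at 314 and 477 and then at -68.3 and -14.1, so that 4 h is listed below 0 and no fold is given. Ap1b1, an adaptor of clathrin coats, was at -9.84 and -389 and then at 1331 and 1016, and its other probe set did not pass (0.12 on the log2 scale, adjusted p = 0.861). The adjusted p was 0.00601 for Shmt2, whose call held without each array, and 0.0425 for Lcat and 0.0338 for Ap1b1, whose calls were lost without each array in turn (0.118 to 0.236, and 0.13 to 0.147). Echs1, a mitochondrial hydratase of fatty acid oxidation, went from 610 and 700 to -2.32 and 89.8 (-2.16 ± 0.36, adjusted p = 0.00393). Fam117a went from 634 and 639 to 124 and -17 (-2.03 ± 0.31, adjusted p = 0.00243). For these the size of the change depends on the value added before taking logs.

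The 4 h change differed between treated and untreated cells in 95 genes (1.69% of 5636), 71 with the more positive change under TSA (1.26%) and 24 with the more negative one (0.426%). By probe sets the count was 120 (1.61%). It was 2 in a fit of only the arrays of 0 and 4 h and lower without any 1 of the 8 arrays, from 18 (replicate 1 of untreated 0 h) to 72 (replicate 1 of TSA 4 h). In 82 of the 95 genes the changes had opposite signs, which choosing genes by their difference favours. Only 3 genes were called in both kinds of culture with opposite signs. Of the 71, 58 were called higher with TSA and 12 were called lower without it. Of the 24, 14 were called lower with TSA and 8 higher without it. Of the mitosis list 9 of 37 had a more positive change and 0 a more negative one (limma; unadjusted, 29 and 0), with a difference of 1.70 ± 0.24 for Cdk1 (adjusted p = 0.00688), 2.21 ± 0.27 for Hmgb2 (0.00522), 1.14 ± 0.17 for Mad2l1 (0.00784) and 1.33 ± 0.23 for Cdc20 (0.0169). Cdk1, Hmgb2 and Mad2l1 were among 11 of the 95 genes that kept the difference without each of 8 arrays in turn. That of Cdc20 was lost without 4 of them, replicate 1 of 0 h with TSA and 3 untreated arrays, with adjusted p up to 0.0813.

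Genes of other roles differed as well, among them 2 in no list, Srsf6 and Rab11b. Srsf6, a splicing factor, went from 2580 and 2749 to 6642 and 6677 with TSA (1.28 ± 0.14, adjusted p = 0.000287), and stood at 5650 and 5435 and then at 5236 and 5091 without. Rab11b, a GTPase of recycling endosomes, went from 543 and 761 to 2016 and 2066 (1.48 ± 0.17, adjusted p = 0.00034), against 1961 and 1523 and then 1153 and 1336. Both began below the untreated arrays and ended above those of 4 h. Gas1, named for its expression in growth arrest and a member of the list of genes that restrain division, differed through the untreated cells, where it fell from 3949 and 4813 to 1608 and 1850, while with TSA it had 1411 and 1149 and then 1829 and 1914 (0.51 ± 0.18, adjusted p = 0.131). Cx3cl1, the chemokine fractalkine and 1 of 2 among 14 chemokine, cytokine and receptor genes with a more negative change under TSA, likewise rose without TSA from 297 and 210 to 916 and 1203 and did not pass with it, at 998 and 1117 and then 696 and 898 (adjusted p = 0.261). With TSA the 0 h arrays of Cx3cl1 thus already lay within the range of the untreated arrays of 4 h, and those of Gas1 just below it.

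**Figure D4:**
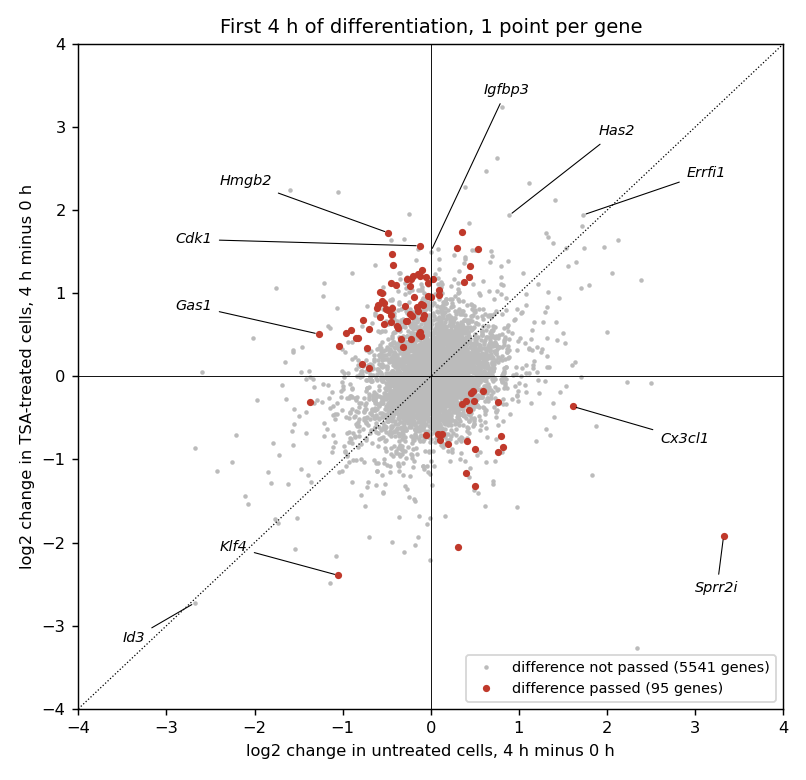
Log2 change from 0 to 4 h in untreated cells (horizontal axis) and TSA-treated cells (vertical axis), 1 point per gene, with the 95 genes whose changes differed in red and a dotted line of equal change. Most red points lie above the line near 0 on the horizontal axis, such as Cdk1, and Id3 and Errfi1 lie close to the line.

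The level reached at 4 h was not always kept at later times of the arm. Mean intensity of Cdk1 with TSA was 1788 at 0 h, 5584 at 4 h and 8680 at 12 h, against 5755, 5231 and 8641 without. That of Has2 was 1167, 4861 and 2081 with TSA against 761, 1528 and 1070 without, so the 4 h value was the highest in both. Fst had 438, 1393 and 301 with TSA, and 14206 at 48 h against 512 without.

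**Figure D5:**
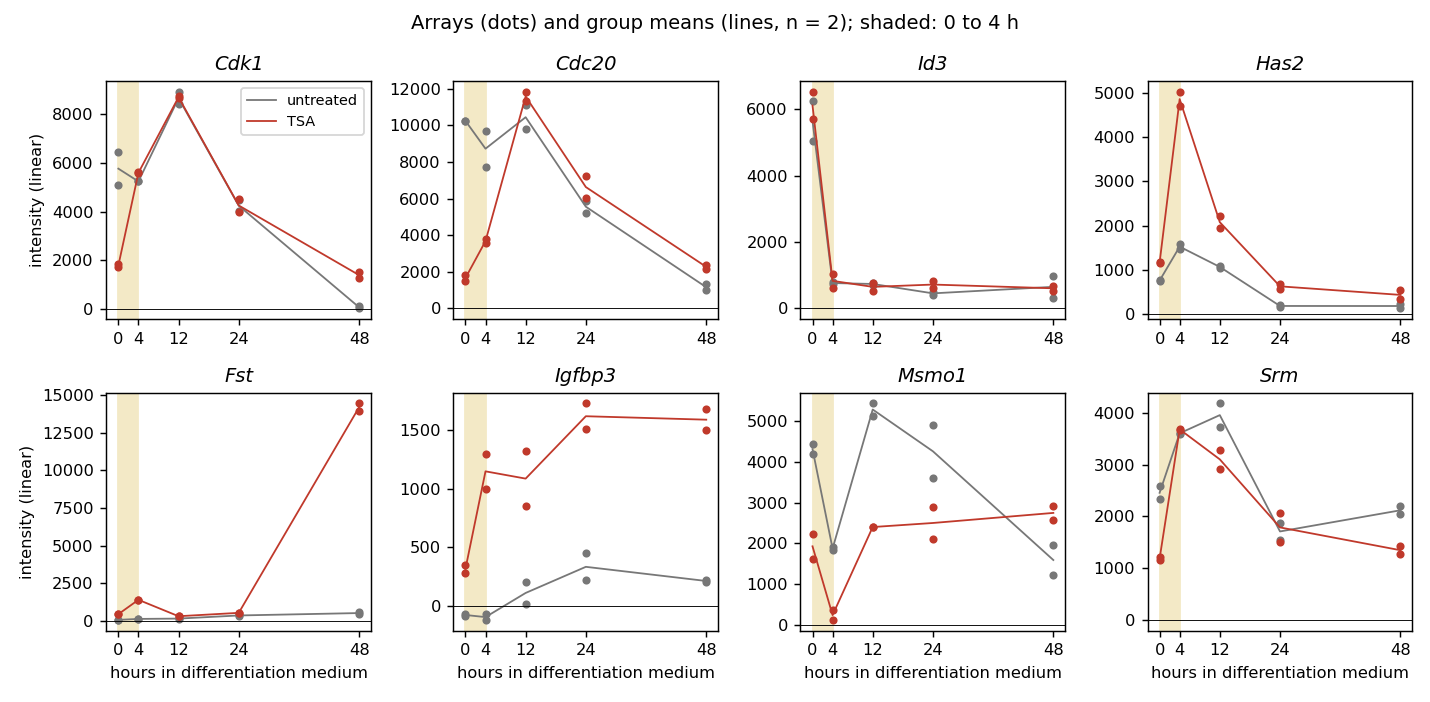
Intensity on a linear scale (vertical axis, each gene on its own scale) against hours in differentiation medium (horizontal axis) for 8 genes, with arrays as dots and means of 2 arrays as lines, untreated in grey and TSA-treated in red, and the first 4 h shaded. The lines of Cdk1 meet at 4 h, at 5584 with TSA and 5231 without, while those of Msmo1 and Has2 stay apart.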

How the data were processed

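The series has 32 Affymetrix arrays with RNA of C2C12 cells, and the 20 of its TSA arm were fitted. The deposited values are intensities on a linear scale, 1 per probe set and array. For this arm, the software behind the values is not given in the sources at hand, and the submitters' processing notes name MAS5 for the other arm. Trimmed means are equal over the arrays, which shows scaling before deposit, and values below 0 occur. Of 12488 probe sets, 66 controls were left out, and the platform annotation with RefSeq gave 1 symbol for 10833, more than 1 for 396 and no symbol for 1193, or 8251 genes.

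Values below 0 were set to 0, the 40th percentile of the arm's values (137.7) was added and log2 taken, with no further normalization. Probe sets with a mean of at least 144.9, the 40th percentile of means, were tested, which left 7453 probe sets and 5636 genes. A gene was represented by its brightest tested probe set. The fit was limma 3.58.1 in R 4.3.3 (lmFit and eBayes, 1 mean per treatment and time, 10 residual degrees of freedom and 2.45 prior ones), for TSA 4 h minus 0 h, for untreated cells and for the difference of these changes. Sharing 1 spread over 10 groups assumes that they vary alike. The number of arrays limits the precision.

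On simulated data the fit for TSA-treated cells recovered 20.9% of changes of 0.5 on the log2 scale, 64.2% of 1 and 77.3% of 2, and called 5 of 7253 unchanged probe sets. For the difference it recovered 7.46%, 34.3% and 66.7% and called 2. Small changes were therefore mostly missed in the simulation. It drew independent normal errors and changed only the TSA-treated 4 h group, with 7253 of 7453 probe sets unchanged. Its rates need not carry over to the data.

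The comparison and the 41 gene lists were chosen with earlier results of these data known. Genes were named by rule: the 12 of largest change in each direction with non-overlapping arrays, up to 4 of smallest p per list, 8 in each direction for the difference, and 20 fixed genes, 184 in all, not all printed. Plk4, Top2a, Mki67, Kif23, Aurkb, Birc5, Pcna, Gnl3, Idi1 and Mvd, list members outside this rule, were chosen after their values were seen. Alternatives were quantile normalization, median centring, other pseudocounts and filters, trend and robust variance estimation, fewer arrays in the fit, replicate numbers as a block, and leaving out each array. Promoter windows came from RefSeq on GRCm38.p6, 27025 genes.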

Additional observations from a re-analysis of the deposited data

Results flagged for a closer look

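The change from 0 to 4 h differed between treated and untreated cells in 120 probe sets, the test being the difference of the log2 changes in the limma fit. With 1 probe set per gene, the 8 genes of smallest p with the more positive change under TSA were Hmgb2 (a difference of 2.21 on the log2 scale), Rab11b (1.92), Dlgap5 (1.29), Gas1 (1.78), Cdk1 (1.70), Larp7 (1.39), Srsf6 (1.38) and Marcksl1 (1.46). Of these, Marcksl1 alone lost its call when an array was left out, without replicate 1 of untreated 0 h (adjusted p = 0.0507). The other probe set of Larp7 did not pass for the difference (1.25, adjusted p = 0.129).

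The 8 with the more negative change under TSA were Cx3cl1 (-1.97), Fgf11 (-1.51), Pkp2 (-1.67), Kcnn4 (-1.07), Sprr2i (-5.25), Rasa3 (-0.87), Tob1 (-1.37) and Pawr (-1.81). Fgf11 and Pkp2 fell with TSA and rose without it (-0.71 and 0.80 for Fgf11, -0.85 and 0.82 for Pkp2). The falls with TSA were lost without each array but replicate 1 of 4 h (adjusted p up to 0.166 and 0.111). The other probe set of Fgf11 passed neither for the fall (-0.24, adjusted p = 0.639) nor for the difference (-0.51, 0.553), and that of Pkp2 for neither (-1.16, 0.108, and -1.63, 0.185). Cx3cl1 kept its call without each of the 8 arrays in turn. Fgf11 and Pkp2 lost theirs without replicate 1 of untreated 0 h (adjusted p = 0.0507 for both), and Kcnn4, Sprr2i, Rasa3, Tob1 and Pawr without 4 or more arrays, with adjusted p up to 0.0788, 0.0813, 0.0969, 0.108 and 0.127. Sprr2i, a cornified envelope gene whose probe set can bind related transcripts, had 1054 and 1700 and then 74.5 and 579 with TSA, and 83 and -30.8 and then 1749 and 1474 without.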

How the results depend on the processing

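The count of probe sets called in TSA-treated cells (447) was 421 to 506 with quantile normalization, median centring, other pseudocounts, other filters, and trend and robust variance. It was 308 with only the arrays of 0 and 4 h, and 161 to 340 without 1 TSA-treated array, lowest without replicate 1 of 0 h (161) and without replicate 2 of 4 h (179). With only the arrays compared it was 0, and that for untreated cells (153) 0 as well, with 1216 and 1506 at an unadjusted p under 0.05. The untreated count was 60 with only the arrays of 0 and 4 h and 24 to 45 without 1 array. The count for the difference (120) was 204 with no filter, 210 with the filter at the 60th percentile, 2 with only the arrays of 0 and 4 h, 2 with only the arrays compared and 18 to 72 without 1 array. The cause of these moves was not tested. The fits with no filter or the filter at the 60th percentile used all 20 arrays, and those limited to some arrays used fewer. No named gene that passed, in the reported fit or in an alternative, changed its direction under the alternatives run. Of 90 named genes called, 85 to 89 kept their call with other scaling, pseudocounts and variance estimation and with no filter, all 82 that were tested with the filter at the 60th percentile, 82 with the replicate block, 63 with only the arrays of 0 and 4 h, 0 with only the arrays compared and 45 to 66 without 1 array.

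Replicate numbers 1 and 2 are shared by the titles of all groups but those of 24 h, which carry 2 and 3. They were not taken as pairs, since samples of 1 number did not deviate together throughout. The correlation was 0.23 between 0 and 4 h with TSA, the highest of 28 pairs of groups, 0.01 without, and -0.04 in the median. The 24 h groups were left out of these pairs. With the replicate block the counts were 395, 71 for the difference and 114 for untreated cells, and 2 insulin and FoxO genes fell in place of 4. On these arrays 21.1% to 22.2% of values lay at or below 0, which limits what can be said of dim genes.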
